A study of Mus musculus with 21 samples.

Results

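The amino acid transporter families examined here are Slc1, Slc3, Slc6, Slc7, Slc36, Slc38 and Slc43, the carriers that move amino acids and some related small molecules across cell membranes. Members were all probes whose gene name on the array was one of these family names followed by the letter a and a number, which gave 110 of 56605 probes and 60 of 37074 gene names. Where a gene had several probes, as 34 members did, the probe with the highest mean over the 21 arrays stood for it. Of the 60 members, 43 were bright enough to be tested in at least 1 comparison and 17 in none. A fixed set of 25 members, called the fixed members below, is named in every comparison in which it could be tested.

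The study followed mouse hepatocytes as they were turned into CLiPs, proliferating liver progenitor-like cells derived from hepatocytes, and then back toward hepatocytes by hepatic induction. All 21 samples were labelled as female C57BL/6, with 3 arrays in each of 7 groups, and no genetic modification was labelled. Freshly isolated hepatocytes were the starting cells. CLiPs at passage 1 (P1) were taken on day 0, before induction, and on day 8 after culture with both inducers (induced) or without them (uninduced). Late CLiPs were taken at the same 3 points, with replicates 1 and 2 at passage 12 and replicate 3 at passage 11. The 2 inducers were oncostatin M, a cytokine that signals through STAT3, and dexamethasone, a glucocorticoid. The labels do not say how many mice or cultures the replicates came from, and the p-values therefore reflect only how much these samples differed, a spread that may be technical. They also carry a P1 passage tag on fresh replicate 3, which was kept as fresh on its title.

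The liver takes up amino acids for protein synthesis, gluconeogenesis and the urea cycle, and each family has its own coupling. Slc38 carriers bring in neutral amino acids with sodium, either as system A or as system N, the latter specialised for glutamine. Most Slc7 members are light chains that need a heavy chain of the Slc3 family to reach the membrane and that exchange one amino acid for another, while Slc7a1, Slc7a2 and Slc7a3 carry arginine and lysine without a heavy chain. Slc1 holds glutamate carriers and neutral amino acid exchangers, and Slc6 holds sodium- and chloride-coupled carriers of glycine, proline, GABA, taurine, betaine and creatine. Several of these genes are known targets of the amino acid response, in which the factor ATF4 binds C/EBP-ATF response elements (CARE) when amino acids run short.

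To set the members beside that response, their promoters were searched for the CARE letters TGATGNAAN on both strands. Of 60 members, 42 had a promoter in the RefSeq table (build GRCm38.p6), with 63 promoters among 32851 in all, each running from 250 bases before to 50 bases after a start site. A CARE match stood in 4 of the 63 (6.35%), of which 2 belong to Slc7a7 and share a match, and in 3.95% of all promoters. The 3 promoters below are shown for the members that had one, from 160 bases before to 20 after the start, 5′ to 3′ on the minus strand, with the CARE matches in capitals.
Slc7a11, chr3:50443594-50443773: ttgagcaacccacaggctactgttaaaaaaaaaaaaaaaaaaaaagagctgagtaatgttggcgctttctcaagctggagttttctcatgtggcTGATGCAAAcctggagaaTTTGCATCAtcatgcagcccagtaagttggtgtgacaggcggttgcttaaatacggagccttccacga
Slc7a7, chr14:54417925-54418104: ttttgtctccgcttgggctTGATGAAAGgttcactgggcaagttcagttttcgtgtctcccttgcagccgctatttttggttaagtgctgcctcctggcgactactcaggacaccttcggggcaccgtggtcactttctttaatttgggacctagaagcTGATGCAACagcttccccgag
Slc1a4, chr11:20332694-20332873: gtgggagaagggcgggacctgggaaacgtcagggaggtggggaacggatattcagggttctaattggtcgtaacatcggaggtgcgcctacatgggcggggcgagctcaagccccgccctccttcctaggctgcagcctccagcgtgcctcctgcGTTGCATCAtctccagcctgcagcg
The matches began 66 and 48 bases before the start in Slc7a11, 141 bases and 1 base before it in Slc7a7, and 5 bases before it in Slc1a4. The antioxidant response letters TGACNNNGC stood in 11 of the 63 member promoters (17.5%) and in 12.4% of all. The STAT letters TTCNNNGAA stood in 4 (6.35%) and in 8.3% of all. A glucocorticoid response element and an HNF1 site in their full forms were in 0 of the 63 and in 0.00913% of all promoters each. These matches are letters in a window and describe no binding.

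Levels below are log2 signals relative to the array's 75th percentile, so that 0 is that percentile. Fresh and P1 arrays were read on 1 scanner and late arrays on another, with different software versions, so that late levels and scanner cannot be told apart outside comparisons within the late arrays. The 75th percentile of the signal was 291 to 332 on fresh arrays, 466 to 789 on those of P1 cells and 881 to 1241 on those of late cells. From 46.1% to 60.5% of probes rose well over background. Each fresh array was on a slide of its own, and the P1 groups shared slides 4 and 5. All 7 hepatocyte markers were above background on every fresh array, and their summed level (linear, relative to the 75th percentile) was 2740 to 3390 there, 358 to 508 in P1 CLiPs on day 0 and 9.33 to 31.5 in late CLiPs on day 0. The summed endothelial markers were 3.66 to 6.5 in fresh hepatocytes and 0.206 to 0.667 in CLiPs. Of the endothelial and macrophage markers, Kdr, Lyve1, Cdh5, Cd5l and Adgre1 were above background on all 3 fresh arrays and on no CLiP array. The others went differently. Pecam1, Stab2, Csf1r and Cd68 were above background on every array, and Clec4f on all fresh arrays and 1 late day 0 array. Csf1r had a mean of 2.79 in fresh hepatocytes and 4.15 in uninduced P1 cells. Stellate and fibroblast markers summed to 0.482 to 1.16 in fresh hepatocytes, 3.19 to 20.1 at P1 and 0.139 to 0.318 at late passage. Col1a1, Col3a1 and Pdgfrb were above background on no late array, Des on every late array and Reln on some of them. Biliary and progenitor markers summed to 1.01 to 1.78 in fresh hepatocytes and 438 to 465 in P1 CLiPs on day 0, and all 6 were called higher at conversion (median log2 change 8.86). The part of these other cells in the results was not tested, and in such bulk samples fewer cells of a type and less RNA per cell cannot be told apart.

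Conversion was accompanied by large falls in some carriers and large rises in others. Of 41 members tested in P1 CLiPs on day 0 against fresh hepatocytes, 13 were higher and 12 lower at an adjusted p under 0.05 with at least a 2-fold change. That is 61% of them, beside 50.6% of all 20631 genes tested. The higher members were 31.7% of those tested, beside 25.4% of all genes, and the lower ones 29.3%, beside 25.2%. Over the members tested the median log2 change was -0.01, as it was over all genes tested. The largest falls were in the betaine carrier Slc6a12, the neutral amino acid carrier Slc38a4 and the GABA and taurine carrier Slc6a13, each highest in fresh hepatocytes among the 7 groups. The largest rises were in Slc7a1, Slc38a1, Slc7a6 and Slc1a5, all below background in fresh hepatocytes.

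Among the Slc38 carriers of systems A and N, Slc38a4 and Slc38a3 fell, Slc38a1 rose and Slc38a2 was not called. Slc38a4 (SNAT4; probe at mm9 chr15:96827256-96827315, minus strand) had levels of 7.79, 7.76 and 7.77 on the fresh arrays and 1.14, 0.12 and 0.28 on the P1 day 0 arrays. The groups did not overlap, and the fall was 153-fold (log2 change -7.26, SE 0.275, adjusted p = 1.5e-09). Slc38a3 (SNAT3, the system N glutamine carrier; chr9:107553825-107553884, minus strand) went from 7.32, 6.95 and 6.98 to 1.84, 1.31 and 2.38. It too was lower on every P1 array, by 37.9-fold (log2 change -5.25, SE 0.249, adjusted p = 8.7e-09). Slc38a1 (SNAT1; chr15:96406793-96406852, minus strand), which carries glutamine and alanine, was not above background on any fresh array, at -3.85, -5.60 and -4.10, and stood at 3.85, 3.86 and 3.67 on the P1 arrays. It was at least 135-fold higher after conversion (log2 change 8.31, SE 0.354, adjusted p = 3.7e-09). Slc38a2 (SNAT2), the system A member best known for rising when amino acids run short, was at 4.79, 4.19 and 3.58 on fresh arrays and 4.35, 4.43 and 4.25 on P1 arrays. These overlapped, with a log2 change of 0.15 (adjusted p = 0.58). Slc38a9, a lysosomal arginine sensor, lay between 5.71 and 6.30 on every array of the series and changed by 0.08 at conversion (adjusted p = 0.57). Slc38a6 was 2.61-fold higher, and its other probes changed by 0.88 and 0.62 without a call. Slc38a8 was lower by a log2 change of -1.15, which fell under the 2-fold minimum with normexp background correction (-0.98).

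**Figure D1:**
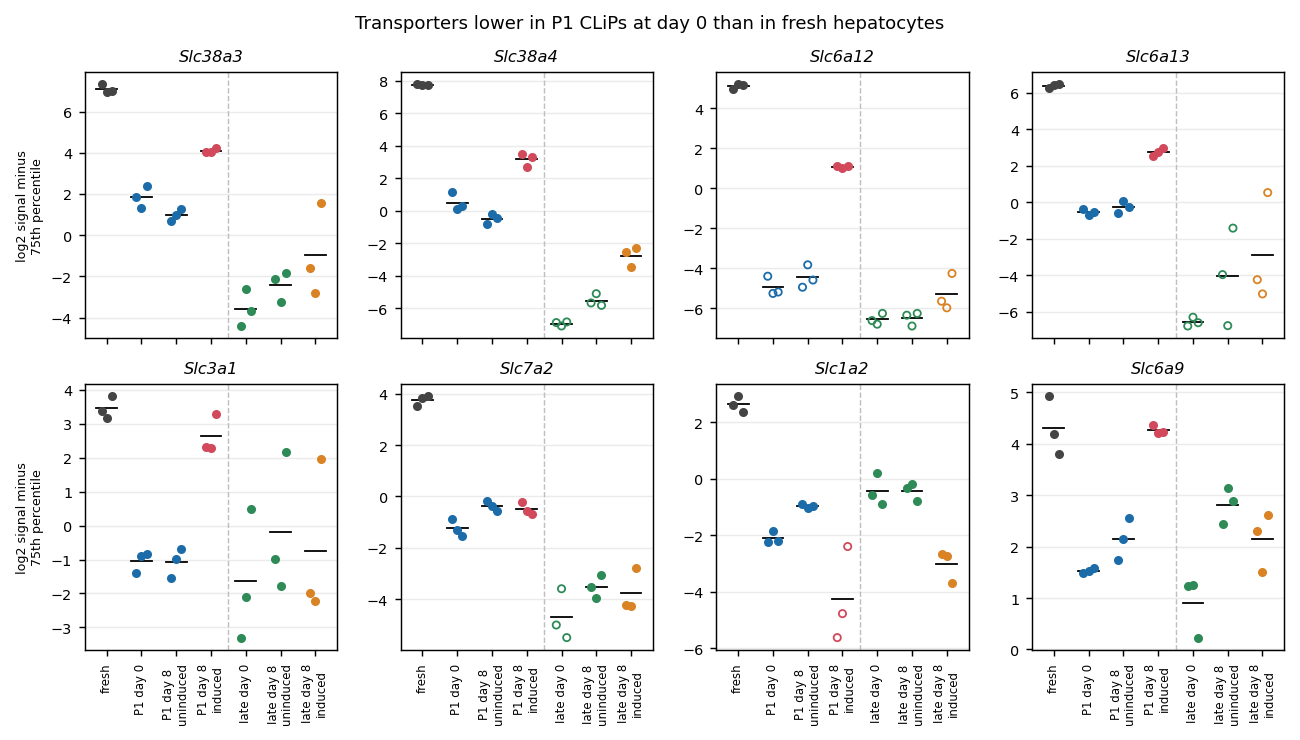
Levels (log2 signal relative to the array's 75th percentile, vertical axis) of 8 members on each array of the 7 groups (horizontal axis). Lines are group means of 3 arrays, filled points belong to groups in which the probe was well above background on all 3 arrays, open points to the other groups, and the dashed line divides the scanner sets. All 8 are highest or near highest in fresh hepatocytes, with Slc38a4 at 7.76 to 7.79, and Slc7a2 and Slc1a2 differ from the other 6 in not being higher in induced than in uninduced P1 cells.

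Of the Slc6 carriers named here, Slc6a12, Slc6a13, Slc6a9 and Slc6a7 fell, Slc6a8 rose and Slc6a6 was not called. Slc6a12 (BGT1, for betaine and GABA; chr6:121315541-121315600, plus strand) stood at 4.95, 5.20 and 5.17 on fresh arrays and at -4.40, -5.26 and -5.19 on P1 arrays, none of them above background. It was at least 511-fold lower (log2 change -10.06, SE 0.282, adjusted p = 1.6e-10). Slc6a13 (GAT2, for GABA and taurine; chr6:121287597-121287656, plus strand) went from 6.28, 6.42 and 6.47 to -0.36, -0.72 and -0.53. That was a 122-fold fall with no overlap (log2 change -6.93, SE 0.177, adjusted p = 8.5e-11). Both probes lie on chromosome 6. Slc6a9 (GlyT1, a glycine carrier) went from 4.93, 4.18 and 3.81 to 1.48, 1.53 and 1.58, a 6.85-fold fall (adjusted p = 2.6e-06) without overlap. The proline carrier Slc6a7 was at least 11-fold lower, being below background on the P1 arrays. Slc6a8, the creatine carrier (chrX:70927775-70927834, plus strand), moved the other way, from 1.08, 0.14 and 0.79 to 2.93, 3.07 and 2.87. Every P1 array was above every fresh array, and the rise was 4.88-fold (log2 change 2.29, SE 0.218, adjusted p = 2.7e-06). Slc6a6, the taurine carrier, was at 4.71, 4.30 and 4.07 and at 4.50, 4.65 and 4.40, which overlapped (log2 change 0.15, adjusted p = 0.42).

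The 3 arginine and lysine carriers with a known substrate did not move as one. Slc7a2 (CAT2, the carrier typical of liver; chr8:42003321-42003380, plus strand) was at 3.52, 3.83 and 3.91 on fresh arrays and at -0.89, -1.29 and -1.53 on P1 arrays. The arrays did not overlap, and it fell 31.7-fold (log2 change -4.99, SE 0.188, adjusted p = 1.4e-09). Slc7a1 (CAT1, the carrier of most dividing cells; chr5:149139957-149140016, minus strand) was below background on fresh arrays, at -5.37, -3.86 and -5.15, and at 4.46, 4.46 and 4.24 on P1 arrays. It was at least 204-fold higher (log2 change 9.18, SE 0.31, adjusted p = 6.3e-10), the largest rise among the members. Slc7a3 (CAT3; chrX:98274644-98274703, minus strand) was also below background on fresh arrays, at -5.25, -5.24 and -4.92, and reached -0.06, 0.23 and -0.12, at least 9.89-fold higher (adjusted p = 3.5e-08). Their relative Slc7a4, whose substrate is not established, was 7.98-fold higher (adjusted p = 1.2e-09).

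Of 6 light chains tested, 3 rose, 1 fell and 2 were not called. Slc7a6 (y+LAT2, which exchanges arginine for neutral amino acids; chr8:108721796-108721855, plus strand) was below background on fresh arrays, at -5.31, -5.39 and -5.45, and at 2.28, 2.36 and 2.22 on P1 arrays. This was at least a 47.7-fold rise (log2 change 7.67, SE 0.0948, adjusted p = 1.1e-12). Slc7a11 (xCT, which takes up cystine for glutathione in exchange for glutamate; chr3:50176047-50176106, minus strand) was below background on fresh arrays, at -5.54, -5.61 and -5.67, and at -1.26, -0.93 and -1.24 on P1 arrays. It was at least 4.42-fold higher (adjusted p = 4.6e-10), while its second tested probe changed by 0.05 (adjusted p = 0.92). Slc7a7 (y+LAT1, with the CARE matches printed above) went from -0.03, -0.51 and -0.72 to 1.47, 1.56 and 1.63, a 3.93-fold rise (adjusted p = 1.1e-06) with no overlap. Slc7a15 was 4.8-fold lower (adjusted p = 6.4e-05). Slc7a5 (LAT1, the leucine carrier; chr8:124430996-124431055, minus strand) was at -2.11, -1.67 and -2.01 and at -1.94, -1.80 and -1.99, with a log2 change of 0.02 (adjusted p = 0.9; 95% interval -0.31 to 0.36). The cystine carrier Slc7a9 was not called (0.78, adjusted p = 0.19).

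The heavy chains parted by their brightest probes. Slc3a1 (rBAT, the partner of Slc7a9; chr17:85463142-85463201, plus strand) went from 3.37, 3.16 and 3.82 to -1.40, -0.91 and -0.84. The groups lay apart, and it fell 22.6-fold (log2 change -4.50, SE 0.312, adjusted p = 1.9e-07). Slc3a2 (4F2hc or CD98, the partner of Slc7a5, Slc7a6, Slc7a7 and Slc7a11; chr19:8782189-8782248, minus strand) was at 3.31, 3.56 and 3.65 and at 3.77, 3.85 and 3.89. Every P1 array lay above every fresh array, but the log2 change of 0.33 (adjusted p = 0.02) was under the 2-fold minimum. These values are from the brightest probe. A second Slc3a2 probe was lower in induced P1 cells than in fresh hepatocytes (log2 change -1.47, adjusted p = 2.8e-06), where the brightest was higher. That second probe rose by 0.65 (adjusted p = 0.0026) from uninduced to induced P1 cells, so on day 8 it was lower still without inducers. Its change at conversion is not given here. The direction of Slc3a2 in P1 cells against fresh hepatocytes thus depended on the probe, and the small rise at conversion holds for the brightest probe only.

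Both neutral exchangers of Slc1 were called, in opposite directions. Slc1a5 (ASCT2, a glutamine carrier of dividing cells; chr7:17383359-17383418, plus strand) was below background on fresh arrays, at -4.30, -3.70 and -3.43, and at 1.85, 1.91 and 1.65 on P1 arrays, at least 34.1-fold higher (log2 change 5.61, SE 0.241, adjusted p = 3.9e-09). Slc1a4 (ASCT1, for alanine, serine and cysteine) went from 4.40, 5.24 and 4.80 to 3.31, 3.00 and 3.35, a 3.02-fold fall (adjusted p = 2.1e-05). No fresh array overlapped a P1 array in either gene. The glutamate carrier Slc1a2 (GLT-1; chr2:102617706-102617765, plus strand) went from 2.63, 2.94 and 2.37 to -2.25, -1.85 and -2.19, a 26.8-fold fall (log2 change -4.75, SE 0.618, adjusted p = 3.3e-05). Slc1a6 (EAAT4, a glutamate carrier known from the cerebellum) was higher on the P1 arrays, but these spread from -0.21 over -1.98 to -3.42, and the change fell to 0.86 (adjusted p = 0.088) with normexp background correction.

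In the Slc43 family 1 of 3 members was called, and of 3 proton-coupled members tested 1 was called. Slc43a2 (LAT4, for branched-chain amino acids, phenylalanine and methionine; chr11:75387219-75387278, plus strand) rose from -1.85, -1.88 and -1.91 to 2.11, 2.14 and 2.06, which was 15.8-fold (log2 change 3.99, SE 0.127, adjusted p = 4.2e-10). The groups were tight and far apart. Its relatives Slc43a1 (LAT3), at -2.15, -2.10 and -2.18 and then -3.19, -2.95 and -3.25, and Slc43a3, a purine nucleobase carrier, at 0.28, 0.10 and -0.33 and then -0.28, -1.34 and -1.97, were not called (-0.99 and -1.21). Of the proton-coupled carriers, the lysosomal Slc36a1 was at -0.45, 0.47 and 0.06 on fresh arrays and -0.86, -0.82 and -0.45 on P1 arrays and was not called (-0.74, adjusted p = 0.0062). Slc36a2 was 2.08-fold higher by its brightest probe and changed by 0.03 (adjusted p = 0.92) as the mean of its probes. Without fresh replicate 2 or 3 or P1 replicate 2 it was at 0.98 to 1.0 on the log2 scale, under the 2-fold minimum.

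**Figure D2:**
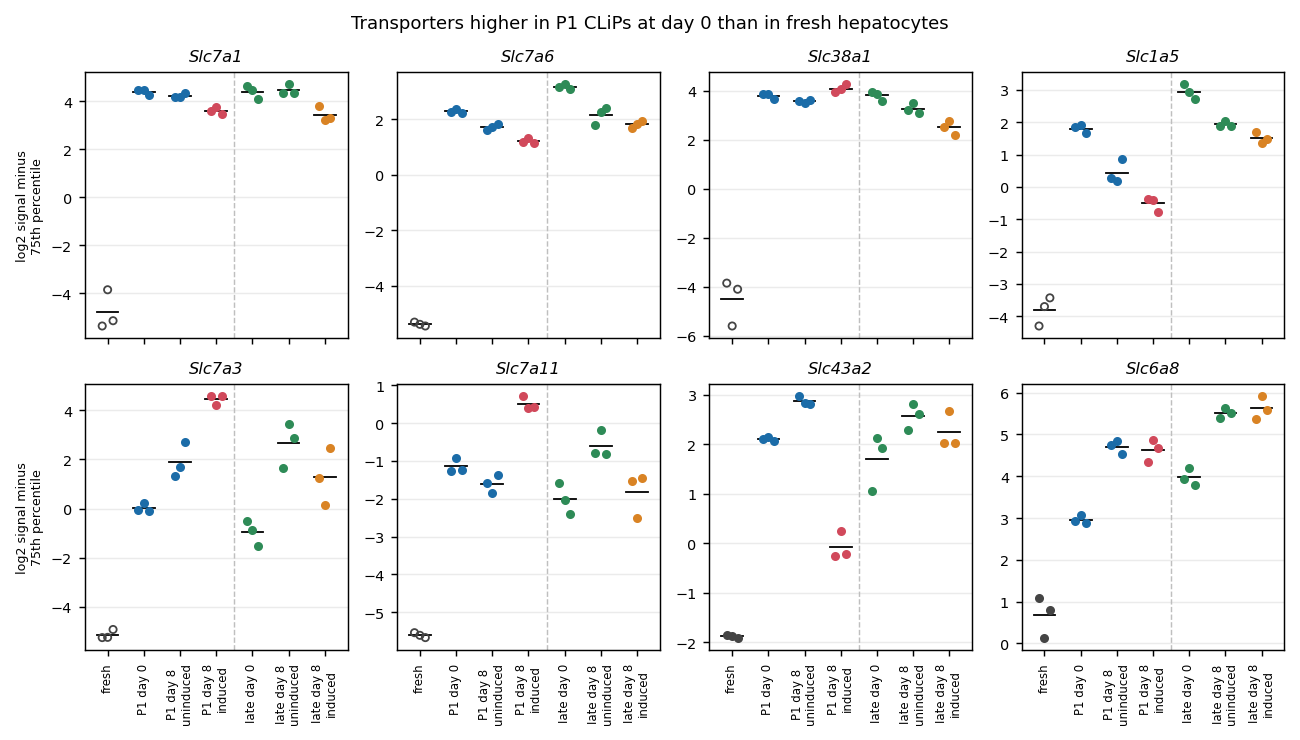
Levels (log2 signal relative to the array's 75th percentile, vertical axis) of 8 members that were higher after conversion, on each array of the 7 groups (horizontal axis). Lines are means of 3 arrays, filled and open points show groups with and without the probe well above background on all 3 arrays, and the dashed line divides the scanner sets. The first 6 genes are open, that is near background, in fresh hepatocytes, Slc43a2 drops in induced P1 cells to -0.25 to 0.24, and Slc7a3 is highest there at 4.23 to 4.58.

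In 8 days without inducers few members were called at P1, a share close to that of all genes. Of 41 tested, 3 were higher and 2 lower on day 8 than on day 0, which is 12.2% beside 11.1% of all genes tested (6.28% higher and 4.86% lower). The cationic carrier Slc7a3 rose from -0.06, 0.23 and -0.12 to 1.32, 1.70 and 2.71, 3.71-fold and without overlap (log2 change 1.89, adjusted p = 0.00065). The creatine carrier Slc6a8 rose to 4.75, 4.85 and 4.54, 3.38-fold (adjusted p = 0.00018), and the taurine carrier Slc6a6 to 5.65, 5.81 and 5.43, 2.17-fold (adjusted p = 0.00052). Slc1a5 fell to 0.26, 0.17 and 0.87, 2.59-fold (adjusted p = 0.0015), with every day 8 array below every day 0 array. Slc38a4 fell by 1.01 on the log2 scale, a call that was lost without P1 day 0 replicate 1 (-0.69, adjusted p = 0.053) or without uninduced replicate 1 (-0.84, adjusted p = 0.064), and its other probe changed by -0.29. The fixed members that were not called had log2 changes between -0.86 (Slc38a3) and 1.13 (Slc1a2, adjusted p = 0.18), with Slc3a2, Slc7a1, Slc7a2, Slc7a5, Slc7a6, Slc7a11, Slc1a4, Slc38a1, Slc38a2, Slc38a9, Slc6a9, Slc6a12, Slc6a13, Slc36a1, Slc43a1, Slc43a2 and Slc43a3 in between.

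Many of the carriers that fell at conversion were higher after induction at P1. Comparing day 8 induced with day 8 uninduced P1 CLiPs, 13 of 41 members tested were higher and 3 lower, 39% beside 18.7% of all genes. The higher members were 31.7% of those tested, beside 9.68% of all genes, and the lower ones 7.32%, beside 9.02%. The median member changed by 0.06 and the median gene by 0.05. Conversion and induction shared no arrays. Of the 12 members lower at conversion, 8 were higher with induction (66.7%, beside 24.9% of the 5204 genes that were lower at conversion). They were Slc38a3, Slc38a4, Slc3a1, Slc6a12, Slc6a13, Slc6a7, Slc6a9 and Slc7a15, while Slc1a2 was lower again (8.33%, beside 2.34% of those genes) and Slc1a4, Slc38a8 and Slc7a2 were not called. These 8 made up 8 of the 13 members higher with induction, a share close to that over all genes (1295 of 1997). Of the 13 members higher at conversion, Slc7a3 and Slc7a11 were higher again (15.4%, beside 2.88% of 5238 genes), only Slc43a2 was lower (7.69%, beside 27.1%), and 10 were not called.

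**Figure D3:**
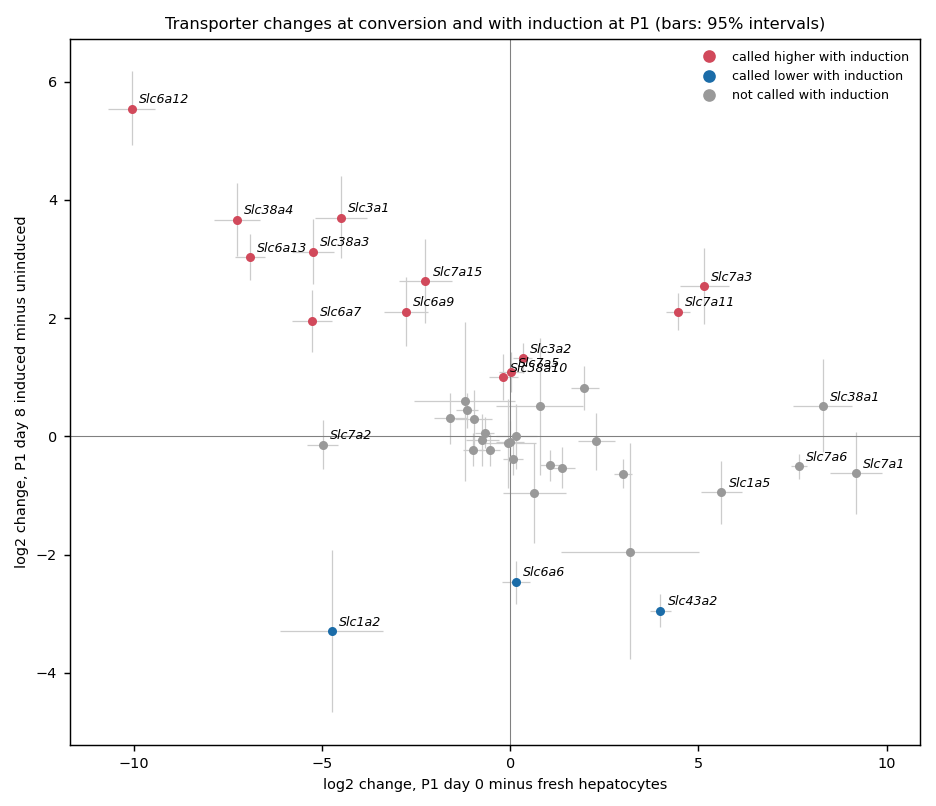
Log2 change at conversion (P1 day 0 minus fresh, horizontal axis) against log2 change with induction at P1 (day 8 induced minus uninduced, vertical axis) for the 41 members tested. Bars are 95% intervals and colours give the call for induction. The upper left holds the 8 members that were lower at conversion and higher with induction, from Slc6a12 (-10.06 and 5.54) to Slc7a15 (-2.26 and 2.62), and Slc7a2 (-4.99 and -0.14) lies at the left near 0.

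The largest rise was in Slc6a12, from -4.95, -3.83 and -4.59 uninduced, with 1 array above background, to 1.11, 1.02 and 1.13 induced. The groups did not overlap, and the change was 46.6-fold (log2 change 5.54, adjusted p = 1.7e-07). Slc6a13 rose from -0.61, 0.05 and -0.24 to 2.53, 2.76 and 3.00, 8.16-fold (adjusted p = 4.1e-07). Slc38a4 rose from -0.82, -0.19 and -0.47 to 3.47, 2.73 and 3.32, 12.7-fold (adjusted p = 2.3e-06). All induced arrays lay above all uninduced ones in these genes. Slc38a3 rose from 0.67, 0.98 and 1.29 to 4.03, 4.03 and 4.25, 8.71-fold (adjusted p = 3.6e-06). The glycine carrier Slc6a9 rose from 1.74, 2.15 and 2.56 to 4.37, 4.21 and 4.22, 4.33-fold (adjusted p = 8.7e-05). Slc6a7 was at least 1.37-fold higher, and its log2 change of 1.95 became 0.84 with normexp background correction. Slc7a15 rose from -4.08, -3.58 and -3.89, with 1 array above background, to -1.03, -1.69 and -0.96, 6.16-fold (adjusted p = 7.5e-05).

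Both heavy chains rose. Slc3a1 went from -1.54, -0.97 and -0.69 to 2.31, 2.3 and 3.3, 13-fold (log2 change 3.70, adjusted p = 5.3e-06). Slc3a2 went from 4.04, 4.12 and 4.29 to 5.50, 5.36 and 5.55, 2.5-fold (log2 change 1.32, SE 0.112, adjusted p = 5.5e-06), and its second probe changed by 0.65 (adjusted p = 0.0026), under the 2-fold minimum. Neither gene's groups overlapped. Of their light chains, Slc7a11 rose from -1.57, -1.84 and -1.38 to 0.72, 0.39 and 0.43, 4.31-fold (adjusted p = 1.2e-06), and Slc7a5 from -1.97, -2.18 and -2.38 to -1.20, -1.20 and -0.88, 2.12-fold (log2 change 1.08, adjusted p = 2e-04). Slc7a5 fell under the 2-fold minimum, at 0.83, with normexp background correction, at 0.97 when the percentile was taken over detected probes, and at 0.98 without uninduced replicate 3 or induced replicate 3. Slc7a7 changed by 0.82 (adjusted p = 0.0026) and was not called, as was Slc7a6 (-0.51, adjusted p = 0.0014), which was lower on all 3 induced arrays.

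Of the cationic carriers, Slc7a3 was the one called, rising from 1.32, 1.70 and 2.71 to 4.56, 4.23 and 4.58, 5.83-fold (adjusted p = 4.6e-05) and without overlap. Slc7a2, at -0.17, -0.37 and -0.55 uninduced and -0.23, -0.57 and -0.70 induced, overlapped and changed by -0.14 (adjusted p = 0.6). Slc7a1 went from 4.16, 4.17 and 4.32 to 3.59, 3.75 and 3.46, lower on every induced array but not called (-0.62, adjusted p = 0.13). Slc38a10 was 2.01-fold higher (log2 change 1.0), at the edge of the 2-fold minimum, and was under it at 0.91 without uninduced replicate 3, 0.95 without induced replicate 2 and 0.94 without induced replicate 3.

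With induction at P1, 3 carriers fell. The glutamate carrier Slc1a2 went from -0.89, -1.05 and -0.96 to -5.63, -4.78 and -2.40, with 1 induced array above background, 9.88-fold (log2 change -3.30, adjusted p = 0.0014). Slc43a2 fell from 2.98, 2.83 and 2.81 to -0.25, 0.24 and -0.22, 7.74-fold (adjusted p = 6.1e-08), and the taurine carrier Slc6a6 from 5.65, 5.81 and 5.43 to 3.16, 3.29 and 3.04, 5.52-fold (SE 0.165, adjusted p = 1e-06). No groups overlapped in any of the 3. The other fixed members were not called and lay between -0.94 (Slc1a5, adjusted p = 0.0089) and 0.59 (Slc43a3), among them Slc38a1 (0.51), Slc1a4 (0.31), Slc38a2 (0.00), Slc36a1 (-0.06), Slc6a8 (-0.08), Slc43a1 (-0.23) and Slc38a9 (-0.39). Beside these changes the summed hepatocyte markers were 323 to 369 uninduced and 556 to 682 induced, and 5 of 7 of them were called higher. Of the 6 biliary and progenitor markers, Krt19 (-3.01), Krt7 (-2.37) and Epcam (-2.15) fell and Spp1 rose (1.01), and with Spp1 their sum went from 474 to 508 uninduced to 691 to 813 induced. Of 5 macrophage markers, Csf1r fell (-1.18, adjusted p = 0.0026), Cd68 was not called (-0.89, adjusted p = 0.028), and Clec4f, Cd5l and Adgre1 were above background on no P1 array. The macrophage sum, 17 to 22.7 uninduced and 7.8 to 10 induced, followed Csf1r, and the part of these marker changes in the results was not tested. On slide 4, with 1 induced and 2 uninduced arrays, 14 of the 16 called members kept their sign and a 2-fold change. On slide 5, with 2 and 1, all 16 did. These are the same arrays as in the comparison, so this is no further test. Where groups did not overlap, the sign could not differ.

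Induced P1 cells differed from fresh hepatocytes in 20 of 41 members, 11 higher and 9 lower (48.8% beside 39.1% of all genes, of which 20.3% were higher and 18.8% lower). This comparison shares the fresh arrays with that of conversion and the induced arrays with that of induction. Slc7a3 was at least 214-fold, Slc38a1 at least 165-fold and Slc7a1 at least 119-fold higher in induced cells than in fresh hepatocytes, followed by Slc7a6 (at least 22.8-fold), Slc6a8 (15.6-fold), Slc7a11 (at least 13.9-fold), Slc7a7 (10.9-fold), Slc7a4 (7.3-fold) and Slc1a5 (at least 6.85-fold). Slc3a2 (3.9-fold) and Slc43a2 (3.5-fold) were also higher, but a second Slc3a2 probe was lower by a log2 change of -1.47 (adjusted p = 2.8e-06), and 2 other Slc43a2 probes changed by 0.31 and 0.02. Lower members included Slc38a4 (24.3-fold), Slc7a2 (19.1-fold), Slc6a12 (16.3-fold), Slc6a13 (12.4-fold) and Slc38a3 (7.92-fold). Slc1a2 was lower too, by a log2 change of -6.92, but was above background on 1 of 3 induced arrays, and the change ranged from -7.85 to -3.61 over the alternatives. The levels of Slc6a9 and Slc7a15 in induced cells differed from those in fresh hepatocytes by -0.04 (adjusted p = 0.89) and 0.32 (adjusted p = 0.38), and Slc3a1 by -0.81 (adjusted p = 0.037). Slc1a4 was 3.4-fold lower, Slc6a7 8.65-fold lower and Slc6a6 2.29-fold lower, the last of these at -0.80 after quantile normalization. Slc6a7 was above background on all arrays of only 1 of the 7 groups, and its change ranged from -3.33 to -1.7 over the alternatives. Slc3a2 (0.33) and Slc6a6 (0.15) had not been called at conversion. Besides Slc6a9, the fixed members without a call here were Slc7a5 (0.84, adjusted p = 0.00052), Slc38a2 (0.35), Slc38a9 (-0.05), Slc43a3 (-0.46), Slc36a1 (-0.52) and Slc43a1 (-0.81).

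On day 0, several carriers of the fresh hepatocyte were lower still in late CLiPs than at P1. The late levels come from another scanner than those of P1, so that passage and scanner cannot be told apart in the changes that follow. Of 43 members tested in late against P1 cells on day 0, 5 were higher and 8 lower, 30.2% beside 13.4% of all genes (4.33% higher). The 8 lower ones were 18.6% of members, beside 9.11% of all genes. Slc38a4 was below background on the late arrays, at -6.88, -7.09 and -6.84, against 1.14, 0.12 and 0.28 at P1, at least 39.4-fold lower (adjusted p = 8.6e-11). Slc38a3 was at -4.41, -2.63 and -3.67, 42.6-fold lower than at P1 (adjusted p = 4.5e-05), and Slc7a2 at -5.00, -3.59 and -5.49, 11-fold lower (adjusted p = 1.1e-05). Neither overlapped its P1 arrays. Slc6a13 was at least 19.1-fold lower, but with slide as a block the change was -4.61 (adjusted p = 0.059). Slc1a6 was at least 7.56-fold and Slc1a4 2.37-fold lower. The call for Slc43a3 (-1.45) was lost without P1 replicate 1 (-0.99, adjusted p = 0.18), without P1 replicate 2 or without any 1 of the late replicates (adjusted p of 0.058 to 0.1), and Slc6a12 was below background in both groups. The stellate and fibroblast markers, which summed to 7.15 to 12.8 in P1 and 0.146 to 0.318 in late cells on day 0, also differed, and their part was not tested.

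The 5 higher members were Slc1a2, Slc6a19, Slc7a4, Slc1a5 and Slc6a8. Slc1a2 was at -0.58, 0.21 and -0.89 on late arrays against -2.25, -1.85 and -2.19 at P1, 3.2-fold higher (adjusted p = 0.027), and was not called with slide as a block (1.32, adjusted p = 0.31) or as the mean of its probes (0.36, adjusted p = 0.49). Leaving out P1 replicate 1 or 3 or late replicate 1 or 2 also ended that call, at adjusted p of 0.053 to 0.11. Slc7a4 was 2.23-fold (adjusted p = 8e-07), Slc1a5 2.2-fold (adjusted p = 0.00058) and Slc6a8 2.04-fold higher (adjusted p = 0.001), the last of these at a log2 change of 0.98 without P1 replicate 3 and 0.92 without late replicate 2. Slc6a19 was above background on 2 late arrays and no P1 array, and its change fell to 0.23 with normexp background correction. Of the carriers that had risen from below background at conversion, Slc1a5 was thus higher and Slc1a6 lower in late cells, and the others were not called. These were Slc7a1 at 4.63, 4.46 and 4.07 (change of 0.00, adjusted p = 0.99), Slc38a1 at 3.95, 3.88 and 3.59 (0.01, adjusted p = 0.98), Slc7a6 at 3.17, 3.26 and 3.1 (0.89, adjusted p = 5.2e-05), Slc7a11 (-0.86, adjusted p = 0.016) and Slc7a3 (-0.99, adjusted p = 0.14). The other fixed members were not called, from Slc7a5 (-0.72) over Slc6a9, Slc43a2, Slc38a2, Slc38a9, Slc36a1, Slc43a1 and Slc6a6 to Slc3a2 (0.86).

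In 8 days without inducers at late passage 6 of 39 members tested rose and 2 fell, 20.5% beside 14.6% of all genes (8.19% higher and 6.37% lower). Slc7a3 rose from -0.52, -0.89 and -1.51 to 1.66, 3.42 and 2.88, 12.3-fold (log2 change 3.62, SE 0.637, adjusted p = 0.0023). The glycine carrier Slc6a9 rose from 1.23, 1.25 and 0.23 to 2.43, 3.13 and 2.88, 3.76-fold (adjusted p = 0.0037), and neither gene's groups overlapped. Slc6a8 rose 2.88-fold (adjusted p = 2e-04) and Slc7a11 2.65-fold (adjusted p = 0.0096). Slc7a7 rose from 0.91, 2.36 and 2.77 to 3.37, 3.87 and 3.77, 3.14-fold, with an adjusted p of 0.022 that became 0.066 without uninduced replicate 2 and 0.062 without uninduced replicate 3. Slc38a4 was called with a change of 1.40 but was above background on no array of either group, so no fold is given. Slc7a6 and Slc1a5 fell, 2.02-fold and 2-fold, at the edge of the 2-fold minimum. Slc7a6 was under it without day 0 replicate 2 (-0.97) or uninduced replicate 1 (-0.83), and Slc1a5 without day 0 replicate 1 (-0.89), uninduced replicate 1 (-0.98) or uninduced replicate 3 (-0.97). The fixed members that were not called ranged from -0.91 (Slc43a3, adjusted p = 0.016) to 1.18 (Slc38a3, adjusted p = 0.39), and included Slc3a2 (0.85, adjusted p = 0.0014), Slc7a5, Slc7a1, Slc7a2, Slc1a2, Slc1a4, Slc38a1, Slc38a2, Slc38a9, Slc6a6, Slc36a1, Slc43a1 and Slc43a2. With the replicate block, Slc7a9 (1.74, adjusted p = 0.052 without and 0.0071 with it) and Slc3a1 (1.44, adjusted p = 0.47 and 0.022) were called higher too. Slc6a12 and Slc6a13 were too dim on the late arrays to be tested.

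Few members were called with induction at late passage, but their share was above that of all genes. Of 39 tested, 2 were higher and 3 lower, 12.8% beside 5.99% of all genes (2.94% higher and 3.06% lower). This comparison shares the uninduced arrays with the one before it. Slc38a4 rose from -5.67, -5.10 and -5.82 to -2.54, -3.47 and -2.30, at least 3.98-fold (log2 change 2.76, SE 0.307, adjusted p = 0.001), without overlap, and its other probe changed by 2.02 (adjusted p = 0.054). Slc6a19 (B0AT1, a neutral amino acid carrier of gut and kidney) went from -4.15, -4.12 and -4.11 to -3.17, -2.94 and -2.47, 2.4-fold (adjusted p = 0.019). That call was lost without any 1 of the 3 uninduced replicates (adjusted p of 0.055 to 0.057).

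Slc1a2 fell from -0.34, -0.17 and -0.77 to -2.66, -2.74 and -3.69, 6.07-fold (log2 change -2.60, SE 0.356, adjusted p = 0.0025), with no overlap, and changed by -0.69 (adjusted p = 0.22) as the mean of its probes. Slc7a1 fell from 4.35, 4.70 and 4.33 to 3.79, 3.21 and 3.28, 2.05-fold (adjusted p = 0.012), which dropped under the 2-fold minimum without uninduced replicate 2 (-0.91), without induced replicate 2 (-0.92) or without induced replicate 3 (-0.96), the array on slide 7. Slc7a11 fell from -0.78, -0.19 and -0.82 to -1.52, -2.52 and -1.46, 2.36-fold (adjusted p = 0.038). The replicate block treats late samples of the same number as pairs, which the labels do not state, and with it the adjusted p was 0.052. The call was also lost without any 1 of uninduced replicates 1, 2 and 3 or induced replicates 1 and 2 (adjusted p of 0.056 to 0.11). The cystine carrier Slc7a9 was not called (-1.75, adjusted p = 0.089) but was lower with the replicate block (adjusted p = 0.016), from -3.27, -1.9 and -0.94 to -4.6, -3.31 and -3.46. In all, without uninduced replicate 2 the count of called members was 2, and it was 3 without uninduced replicate 3 or without induced replicate 2.

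Other carriers with large rises at P1 were not called at late passage (Slc38a3, Slc3a1) or were too dim there to be tested (Slc6a12, Slc6a13). Slc38a3 was at -2.11, -3.26 and -1.82 uninduced and -1.61, -2.79 and 1.56 induced, where replicate 3 stood apart (log2 change 1.45, SE 1.03, adjusted p = 0.37). Without that array the change was 0.19 (adjusted p = 0.85). Slc3a1 and Slc6a13 had the same array high, at 1.97 against -1.99 and -2.21, and at 0.53 against -4.25 and -5.03, and other late arrays of replicate 3 were high as well. In Slc3a1 the uninduced one was at 2.17 against -0.99 and -1.77 and the day 0 one at 0.48 against -3.3 and -2.1, and in Slc6a13 the uninduced one was at -1.42 against -3.97 and -6.77. Replicate 3 was at passage 11 where the others were at passage 12, and its induced array was on a slide of its own. Slc7a2 changed by -0.24 (adjusted p = 0.81), Slc3a2 by -0.15 (adjusted p = 0.5; 95% interval -0.46 to 0.16) and Slc7a5 by 0.07 (adjusted p = 0.84). Further fixed members without a call were Slc38a1 (-0.78, adjusted p = 0.021), Slc6a9 (-0.68), Slc6a6 (-0.63, adjusted p = 0.019), Slc1a5 (-0.43), Slc38a2 (-0.35), Slc7a6 (-0.34), Slc43a2 (-0.33), Slc43a1 (-0.31), Slc36a1 (-0.06), Slc38a9 (0.04), Slc1a4 (0.05), Slc43a3 (0.10) and Slc6a8 (0.11). The inducers' own targets Socs3, Osmr, Fkbp5 and Tsc22d3 were called higher at both passages, 4 of 4 each time. Their median log2 changes were 1.94 at P1 and 1.9 at late passage. The summed hepatocyte markers were 123 to 178 uninduced and 165 to 376 induced at late passage, where these sums overlapped. Of the 6 hepatocyte markers tested there, 0 were called with induction.

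The difference between the induction effects was tested over all 21 arrays, each effect lying within 1 scanner set. Of 43 members tested, the late effect minus the P1 effect was called below 0 in 8 and above 0 in 3, 25.6% beside 9.94% of all genes. The test shares its arrays with both comparisons of induction. The 8 were 18.6% of members, beside 5.21% of all genes, and 4.73% of all genes were called above 0. In Slc7a3 the effect was 2.54 at P1 and -1.36, not called, at late passage (difference -3.90, SE 0.715, adjusted p = 0.0011). In Slc7a11 it was 2.11 and -1.24 (difference -3.35, SE 0.366, adjusted p = 1.5e-05). Slc6a9 (-2.79), Slc7a15 (-2.55), Slc3a2 (-1.47, adjusted p = 3e-05), Slc38a1 (-1.29) and Slc7a5 (-1.02, adjusted p = 0.0068) followed. The second Slc3a2 probe differed by -0.40 (adjusted p = 0.2). Slc38a1 was at the threshold (adjusted p = 0.048; 0.06 with the replicate block) and lost its call without any 1 of the uninduced or induced P1 replicates or of the late ones except induced replicate 2 (adjusted p of 0.06 to 0.11). Slc7a5 fell below the 2-fold minimum, at -0.91 to -0.99, without P1 uninduced replicate 3, P1 induced replicate 3, late induced replicate 1 or 2 or late uninduced replicate 2 or 3, and was -0.76 with normexp background correction. Slc6a12 differed by -4.34, but its late groups were near background, with 1 of 6 arrays above it.

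In the other direction, Slc43a2 changed by -2.95 at P1 and by -0.33 at late passage (difference 2.62, SE 0.33, adjusted p = 5.2e-05), and Slc6a6 by -2.46 and -0.63 (difference 1.84, SE 0.225, adjusted p = 3.9e-05). Slc7a4 changed by -0.63 at P1 and by 0.54 at late passage, neither of them called, and the difference was 1.16 (adjusted p = 7.9e-05). For Slc38a4 (-0.90, adjusted p = 0.17) and Slc1a2 (0.70, adjusted p = 0.61) no difference passed the test, which does not show that the effects were equal. Slc3a1 differed by -4.25 (adjusted p = 0.067), Slc38a3 by -1.68 (adjusted p = 0.32) and Slc6a13 by -1.89 (adjusted p = 0.49). With the replicate block Slc3a1 was called (adjusted p = 0.011). That fit covers fresh and P1 arrays as well, whereas only the late replicate numbers were taken as pairing samples. The call of Slc3a1 therefore does not rest on the late pairing alone. Without late induced replicate 3 the differences of Slc38a3 and Slc6a13 were -2.93 (adjusted p = 0.005) and -3.62 (adjusted p = 0.049). That array is singled out here because its level was seen to be high. The fit keeps the uninduced array of replicate 3, taken as its pair, which was also high in Slc6a13 (-1.42 against -3.97 and -6.77). Leaving out both arrays was not tested, so these 2 values do not settle whether the effects differed. The other fixed members tested were not called, and their differences were -0.49 (Slc43a3), -0.42 (Slc7a1), -0.34 (Slc38a2), -0.26 (Slc1a4), -0.10 (Slc7a2), -0.08 (Slc43a1), 0.00 (Slc36a1), 0.17 (Slc7a6), 0.19 (Slc6a8), 0.43 (Slc38a9) and 0.52 (Slc1a5).

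**Figure D4:**
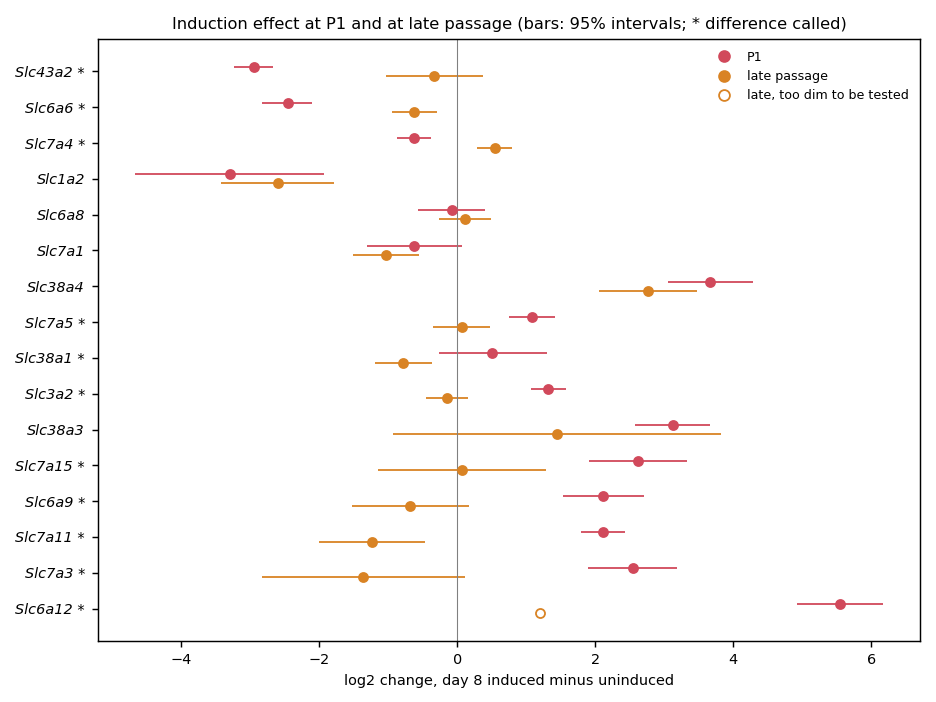
Induction effect (log2 change, day 8 induced minus uninduced, horizontal axis) at P1 and at late passage for 16 members (vertical axis). Bars are 95% intervals, stars mark the 11 members whose difference between passages was called, and the open point was too dim at late passage to be tested. Slc7a3 and Slc7a11 lie to the right of 0 at P1 (2.54 and 2.11) and to the left at late passage (-1.36 and -1.24), whereas Slc1a2 lies to the left at both (-3.30 and -2.60). The late effect of Slc7a3 was not called.

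**Figure D5:**
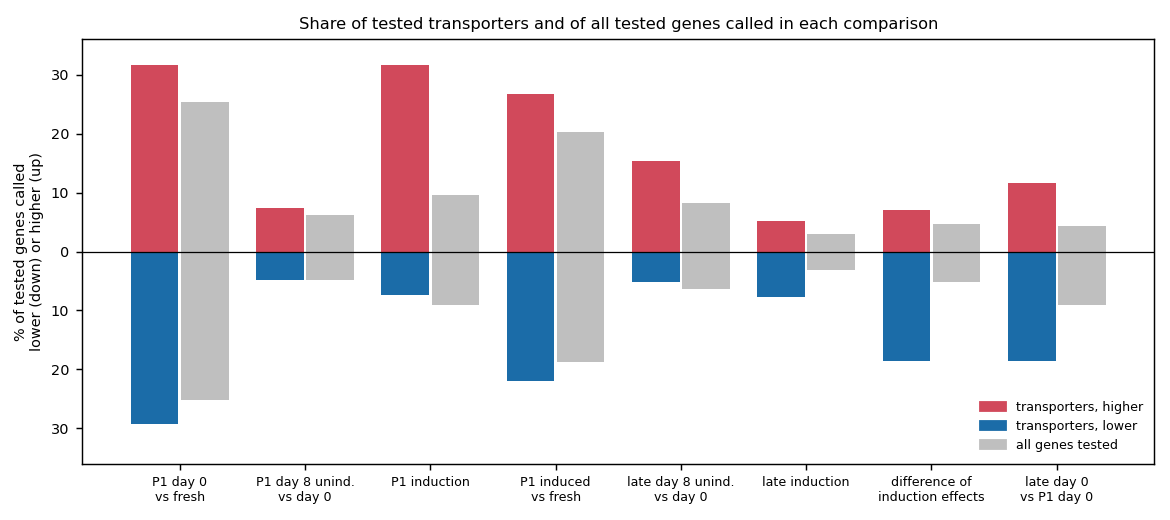
Percent of tested members and of all tested genes that were called higher (up) or lower (down; vertical axis) in each of the 8 comparisons (horizontal axis). Bars start at 0. The members exceed all genes most in the higher calls of P1 induction (31.7% against 9.68%) and in the lower calls of the difference between induction effects (18.6% against 5.21%).

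Genes of the amino acid response were followed beside the carriers. At conversion 5 of 16 rose and 3 fell, 50% beside 50.6% of all genes, the rises being led by the serine synthesis enzymes Phgdh (11.46) and Psat1 (9.57) and the asparagine synthetase Asns (7.25). With induction at P1, 9 of 16 rose (56.2% beside 9.68% of all genes), with a list median of 1.33 beside 0.05 over all genes, with Trib3 (3.17), Shmt2 (2.21), Atf5 (2.09) and Chac1 (1.71) ahead. Atf4 itself changed by 0.50 (adjusted p = 0.0034) and Asns by 0.97 (adjusted p = 0.0023), both under the 2-fold minimum. During the 8 days at late passage without inducers, 6 of 16 rose (37.5% beside 8.19%), led by Trib3 (3.66), Chac1 (2.97) and Atf5 (2.81). With late induction Ddit4 rose (1.28) and Atf3 fell (-2.81). The difference between the induction effects was lower at late passage in 9 of 16 (56.2% beside 5.21%), with Trib3 at -3.76 and Shmt2 at -2.80. This difference shares its P1 arrays with the comparison of induction at P1 and its late arrays with that of late induction. The late uninduced arrays are also those of the 8 days at late passage.

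Enzymes that use the carried amino acids were set beside the shares of all genes called, which were 25.2% lower and 25.4% higher at conversion and 9.02% lower and 9.68% higher with induction at P1. Of 18 genes of amino acid breakdown, 17 fell at conversion (94.4%) and 15 rose with induction at P1 (83.3%), among them the betaine-using methyltransferase Bhmt (7.73), Tat (3.00) and Tdo2 (2.78). At late passage 1 of 11 tested, Gldc (1.53), rose with induction, 9.09% beside 2.94% of all genes. Of 7 genes of the urea cycle and arginine use, 6 fell at conversion (85.7%), with Cps1 at -10.38, Ass1 at -7.57 and Arg1 at least 3370-fold lower, and the polyamine enzyme Odc1 rose (1.74). With induction at P1, 3 of the 7 (42.9%) rose, with Arg1 at least 71-fold and Cps1 by 3.42, while the arginine carrier Slc7a2 changed by -0.14. In glutamine and glutamate metabolism, 3 of 11 genes rose (27.3%) and 7 fell (63.6%) at conversion, among the latter the liver glutaminase Gls2 (-8.25) and the glutamine synthetase Glul (-4.72). With induction at P1, 5 of 11 (45.5%) rose, Gls2 (1.35) and Glul (1.42) among them, and Glul rose by 2.07 at late passage. For glutathione, which xCT serves, 3 of 7 genes fell at conversion (42.9%; Cth -5.97, Cbs -4.07, Gclm -2.24), and with induction at P1 Cth (4.46), Cbs (2.37) and Gsr (1.71) rose, again 42.9% of the list, and Gclc fell by 1.72. With late induction the median change of the 8 tested was 0.01.

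Of 16 genes through which amino acids reach mTORC1, 1 rose and 3 fell at conversion (25% called beside 50.6% of all genes) and 1 fell with induction at P1 (6.25% called beside 18.7%). Rragd, a Rag GTPase, was at least 12.2-fold higher at conversion, rose by a further 3.31 on the log2 scale in 8 days and fell by 2.00 with induction at P1 and by 2.40 at late passage. Among carriers outside the families, the aromatic amino acid carrier Slc16a10 fell by 2.95 at conversion, rose by 1.33 with induction at P1 and differed by -1.48 between the passages. The lysosomal cystine carrier Ctns fell by 1.19 at conversion and rose by 1.51 and 1.21 over 8 days without inducers at P1 and at late passage.

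Of the 60 members, 24 were well above background on all arrays of all 7 groups and 9 on no array. The 9 were Slc36a3, Slc38a5, Slc6a2, Slc6a3, Slc6a5, Slc6a11, Slc6a14, Slc6a18 and Slc7a12, so that the second system N carrier Slc38a5 had no value above background in any group. The other 8 untested members included the fixed Slc7a8 (LAT2), at -3.85, -5.42 and -4.63 in fresh hepatocytes and above background on 1 array of the series, a late induced one, and Slc1a3 (GLAST), above background on 2 P1 uninduced arrays alone. Slc1a1, Slc38a11, Slc6a4, Slc6a15, Slc6a17 and Slc7a13 made up the rest. These members are untested by their brightest probe. The second probe of Slc1a1, a glutamate carrier, was tested at late passage and rose by 2.11 over 8 days without inducers (SE 0.25, adjusted p = 0.00031), while it was not called with late induction (0.95, adjusted p = 0.035), for the difference between induction effects (0.56, adjusted p = 0.24) or between the passages (-0.91, adjusted p = 0.0034).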

How the data were processed

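Total RNA from 21 samples in 7 groups of 3 was labelled with Cy3 and hybridised to 1-colour Agilent mouse arrays, per the labels' protocols. The deposited scanner files, made with Feature Extraction 11.5.1.1 (fresh and P1) or 10.7.3.1 (late) per the file headers, give spot intensity, background-subtracted and detrended within each array, with mm9 probe coordinates. The authors also deposited tables of log2 values. The table of fresh and P1 arrays equalled the scaled log2 signal within 0.01 for 100% of 56605 probes (column medians -3.56 to -3.21), and that of fresh and late arrays did so for 100% of 40760 matched probes after each probe was centred (column medians -0.03 to 0.11). Both were used for a check and an alternative.

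Here control and outlier spots were left out, spots of a probe were averaged, and log2 processed signal was taken minus each array's 75th percentile. The brightest probe stood for a gene, tested where it was well above background on all 3 arrays of at least 1 group. Changes were fitted with limma 3.58.1 (lmFit, eBayes, two-sided) in R 4.3.3, over the 12 fresh and P1 arrays, the 9 late arrays or, for differences of effects and passaging, all 21, and adjusted by Benjamini-Hochberg over all genes tested. A call needs an adjusted p under 0.05 and at least a 2-fold change, and the scripts were tested on simulated data. A probe not above background in a group has a bound there, so its fold is given as "at least", the brighter group's mean over the lowest signal among probes above background or, where higher, the dim probe's own. Exon and UTR positions of probes were not used here.

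Values by array are given for members with the largest called changes per role group and for a fixed set of 25 named in every comparison. Members, lists and tests were chosen with earlier results of these data known. Some items are not reported here. Late replicate numbers were taken as pairing the samples, since same-numbered deviations correlated at 0.25 to 0.53, whereas those of fresh and P1 samples went down to -0.12. The alternatives were quantile normalization, normexp background correction, another scaling percentile, filters on dim probes, other probe rules, the replicate block, slide as a block, the groups compared alone, another eBayes setting, the authors' tables, no fold minimum and leaving out each replicate. The number of arrays limits the precision.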

Additional observations from a re-analysis of the deposited data

Results flagged for a closer look

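In 11 members the effect of induction differed between P1 and late passage by the test of the difference itself (limma over all 21 arrays, late minus P1, log2). The difference was below 0 in Slc6a12 (-4.34, adjusted p = 3.3e-05), Slc7a3 (-3.90, adjusted p = 0.0011), Slc7a11 (-3.35, adjusted p = 1.5e-05), Slc6a9 (-2.79, adjusted p = 0.00056), Slc7a15 (-2.55, adjusted p = 0.01), Slc3a2 (-1.47, adjusted p = 3e-05), Slc38a1 (-1.29, adjusted p = 0.048) and Slc7a5 (-1.02, adjusted p = 0.0068). It was above 0 in Slc43a2 (2.62, adjusted p = 5.2e-05), Slc6a6 (1.84, adjusted p = 3.9e-05) and Slc7a4 (1.16, adjusted p = 7.9e-05). Each effect lies within 1 scanner set, and P1 and late cells cannot be told apart from the scanner sets in which they were read.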

How the results depend on the processing

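No called result changed direction under any alternative, each of which took the brightest probe or the mean of a gene's probes. Other probes taken alone were not among these alternatives. Of the other probes of called members, 1 had the opposite call. It was the Slc3a2 probe that was lower in induced P1 than in fresh cells (-1.47, against 1.96 for the brightest). Of 2616 values of members under settings other than leaving out a replicate, 2522 stayed on the same side of the threshold, 50 lost their call and 44 gained one. With only genes above background in all groups compared, the members called were 15 at conversion, 12 for induced P1 against fresh cells, 7 for the difference between induction effects and 7 for late against P1 day 0, since fewer genes were tested. With the mean of all probes they were 3 for P1 day 8 against day 0 and 3 for late induction, and the cause was not tested. Without the 2-fold minimum they were 16 for P1 day 8 against day 0, 17 for late day 8 against day 0, 10 for late induction and 21 for late against P1 day 0. Leaving out 1 replicate gave 24 to 27 at conversion, 4 to 7 for P1 day 8 against day 0, 14 to 17 for P1 induction, 20 to 21 for induced P1 against fresh cells, 6 to 10 for late day 8 against day 0, 2 to 4 for late induction, 9 to 13 for the difference and 10 to 13 for late against P1 day 0. With the replicate block the counts were 26, 5, 17, 20, 10, 5, 11 and 13 in the same order. It ended the calls of Slc7a11 (late induction) and Slc38a1 (difference) and added calls for Slc43a3 at conversion (adjusted p = 0.0032), Slc1a6 with P1 induction (0.039) and, as given above, Slc3a1 and Slc7a9 over late day 8, Slc7a9 with late induction and Slc3a1 for the difference. It changed no other member's call. Outside the fit of the late arrays the block also covered fresh and P1 arrays, whose replicate numbers were not taken as pairing samples. Scaling by detected probes moved the median of all genes by 0.18 at conversion and by -0.12 for P1 induction, and quantile normalization moved it by 0.14 and normexp by -0.16 at conversion, so changes of that size are not resolved. Dim probes limit the folds of members near background.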
